A study of Mus musculus with 16 samples.

Results

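The CC chemokines are small secreted proteins that direct the movement of leukocytes, and 10 of their genes were followed here across the diets and treatments of a mouse footpad study. Ccl2, Ccl3, Ccl4, Ccl6, Ccl7, Ccl9, Ccl17, Ccl20, Ccl22 and Ccl27a were chosen by symbol, with earlier results of these data known. Each matched 1 of the 50600 gene identifiers of the count table. Female C57/B6J mice gave footpad epidermis, and RNA-seq libraries were made from its cells for 4 biological replicates in each of 4 groups, 16 libraries in all. From 5 wk of age the mice were fed for 3 wk a purified diet that holds few ligands of the aryl hydrocarbon receptor AhR (AhR-poor diet, labelled SYNTH), or that diet enriched with 200 ppm of indole-3-carbinol, a precursor of AhR agonists (I3C diet). Injections of 50 μl went into the footpad, either plain PBS (vehicle) or PBS holding 50 μg of the plant protease papain, a model allergen, and cells were collected 6 hr later. The groups are called I3C vehicle, AhR-poor vehicle, I3C papain and AhR-poor papain. All of them share the strain, the sex and the purified base diet, and no group was fed normal chow. Since cage mates ate the same diet, diet and cage cannot be told apart. The epidermis was parted from the dermis with dispase and dead cells were removed, but the cells were not sorted, and the libraries hold whatever other cells came with the keratinocytes.

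CC chemokines carry a pair of adjacent cysteines near their amino end and act through G protein-coupled receptors named Ccr. Ccl2 and Ccl7 draw Ccr2-bearing monocytes out of the blood, Ccl3, Ccl4, Ccl6 and Ccl9 draw myeloid cells and T cells, Ccl17 and Ccl22 act on Ccr4 of T helper 2 and skin-homing T cells, Ccl20 draws Ccr6-bearing cells, and Ccl27 is made by keratinocytes and read by Ccr10 of skin T cells. Many of these genes are switched on within hours by interleukin-1, TNF or oncostatin M, often through the transcription factor NF-kB.

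The members sit in clusters, given here on GRCm38, the build called mm10 by the authors. Ccl2 (chr11:82035571-82037453, plus strand) and Ccl7 (chr11:82045712-82047525, plus strand) are neighbours. Another cluster on the same chromosome holds Ccl9 (chr11:83572919-83578636, minus strand), Ccl6 (chr11:83587882-83593087, minus strand), Ccl3 (chr11:83647844-83649355, minus strand) and Ccl4 (chr11:83662584-83664683, plus strand). Ccl22 (chr8:94745590-94751699, plus strand) and Ccl17 (chr8:94810453-94812036, plus strand) form a pair on chromosome 8. Ccl20 (chr1:83116766-83119167, plus strand) and Ccl27a (chr4:41769467-41774247, minus strand) stand apart. The exons of Ccl27a share 8 bases with Il11ra1 on the opposite strand, and a near-identical copy, Ccl27b, was counted at 0 in every library, so the values of Ccl27a depend on how reads that map to both were assigned.

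Promoter sequence from RefSeq (GRCm38.p6) was at hand for 7 of the 10 members, in 9 windows of 300 bases from 250 bases before the start site. Ccl20 is shown as a member that rose with papain on both diets, Ccl9 and Ccl6 as neighbours called with papain on the AhR-poor and not on the I3C diet, and Ccl17 as a member called between the diets whose window holds the core letters of the AhR site. Each line gives the 250 bases before the start site, 5′ to 3′, with matches to NF-kB or AhR core motifs in capitals. The windows are chr1:83116516-83116765 on the plus strand for Ccl20, chr11:83578637-83578886 on the minus strand for Ccl9, chr11:83593088-83593337 on the minus strand for Ccl6 and chr8:94810203-94810452 on the plus strand for Ccl17.
Ccl20: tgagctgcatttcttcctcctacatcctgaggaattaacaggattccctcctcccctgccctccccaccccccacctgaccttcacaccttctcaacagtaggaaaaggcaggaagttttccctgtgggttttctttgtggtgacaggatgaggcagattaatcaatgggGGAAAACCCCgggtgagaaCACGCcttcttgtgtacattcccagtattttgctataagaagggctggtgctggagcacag
Ccl9: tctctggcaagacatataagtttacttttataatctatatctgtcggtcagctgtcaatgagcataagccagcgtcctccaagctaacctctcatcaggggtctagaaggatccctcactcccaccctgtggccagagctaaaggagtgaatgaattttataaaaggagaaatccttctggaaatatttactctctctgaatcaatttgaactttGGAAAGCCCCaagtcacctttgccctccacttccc
Ccl6: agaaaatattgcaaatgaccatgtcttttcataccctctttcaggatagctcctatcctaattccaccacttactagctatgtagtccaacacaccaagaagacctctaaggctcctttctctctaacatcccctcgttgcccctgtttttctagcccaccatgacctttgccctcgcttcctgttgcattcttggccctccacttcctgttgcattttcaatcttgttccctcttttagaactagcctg
Ccl17: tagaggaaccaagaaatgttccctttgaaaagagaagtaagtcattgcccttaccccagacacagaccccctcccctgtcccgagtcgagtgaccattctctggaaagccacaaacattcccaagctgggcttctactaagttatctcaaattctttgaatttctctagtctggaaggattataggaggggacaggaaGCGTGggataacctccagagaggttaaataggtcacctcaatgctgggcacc
Motifs were searched on both strands of the full windows, and a place read on both strands counted once. A match to the NF-kB consensus began 80 bases before the start site of Ccl20 and 35 bases before that of Ccl9, and another began 31 bases into a start of Ccl27a, while 4.5% of all 32817 promoter windows held one. The AP-1 motif (TGACTCA or TGAGTCA) was found 77 bases before that same start of Ccl27a alone among the 9 windows, against 5.2% of all windows. The letters GCGTG, the core of the AhR site, were present in Ccl20 (61 bases before the start), Ccl17 (52 before), Ccl22 (42 bases after) and 2 overlapping windows of Ccl27a, as in 32.4% of all windows. No match overlapped a match to another motif, and a match is a string of letters, not a shown binding site. Ccl6 and Ccl3 held none of the 3 motifs. The upstream stretches of the neighbours Ccl9 and Ccl6 shared a run of 13 bases, and no other pair shown or searched shared more than 10.

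Library totals ran from 22500821 to 51844375 counts. Levels are given as CPM, counts per 1000000 counts of the library after TMM scaling, and the detection floor of 3 counts was worth from 0.0569 to 0.130 CPM. Floors cover counting error only. Markers of basal keratinocytes summed to between 20710 and 36310 CPM in every library, so the labelled tissue had its defining markers. Markers of other cells differed between the groups and are given beside the chemokines. In bulk libraries, a larger number of cells of a type and more RNA per cell cannot be told apart. Genes were called where edgeR's quasi-likelihood test, adjusted by Benjamini-Hochberg over all 22155 genes tested, gave an adjusted p below 0.01 and the log2 difference was above 1 or below -1. All 10 members were among the genes tested, and errors of log2 differences are standard errors. Libraries were sequenced in several units, and the labels do not say which library ran in which. Values of single libraries are listed in the order T108, T109, T110, T111 (I3C vehicle), T100, T101, T102, T103 (AhR-poor vehicle), T106, T113, T114, T115 (I3C papain) and T104, T105, T107, T112 (AhR-poor papain). T106 in I3C papain, T105 and T112 in AhR-poor papain and T100 in AhR-poor vehicle lay at an end of their group for several members, and differences that moved without them are given both ways.

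The 10 members behaved in 3 ways. After papain on the AhR-poor diet, 9 of 10 rose, all except Ccl27a, and 6.04% of all genes tested were called higher in that comparison. On the I3C diet Ccl20 and Ccl22 rose with papain, 2 of 10 against 3.69% of all genes. With papain present, the AhR-poor diet gave higher levels than the I3C diet for 7 of 10 members, the 9 that rose on the AhR-poor diet without Ccl20 and Ccl22, against 7.15% of all genes. Without papain no member was called between the diets (1.59% of all genes were called higher). No member was called lower in any of these comparisons. The comparisons share groups, so their counts are not independent of each other. The members were chosen with earlier results of these data known. Counts above the share of all genes are thus descriptions and not a test. The median log2 difference of the members was 3.38 for papain on the AhR-poor diet, 0.96 for papain on the I3C diet, 3.50 for diet with papain and 0.41 for diet with vehicle, where the median of all genes lay between -0.04 and 0.01.

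**Figure D1:**
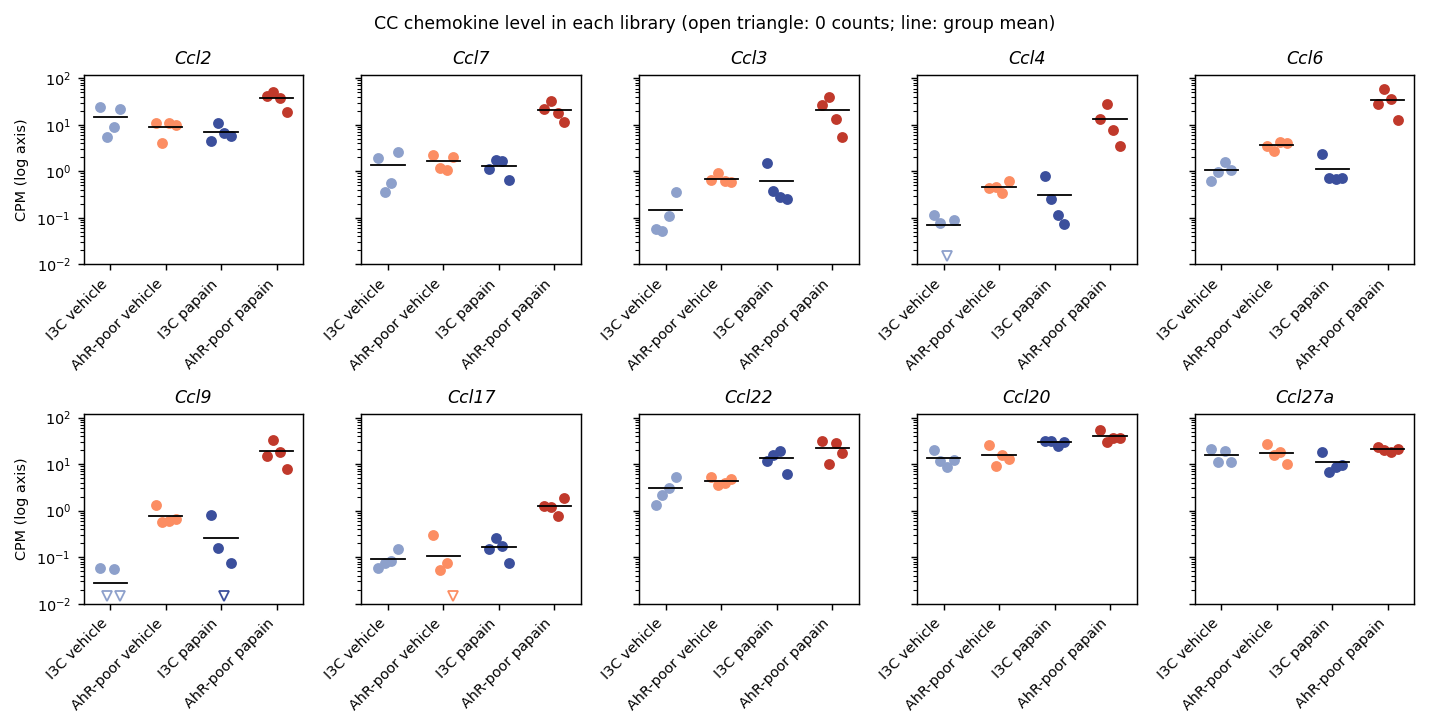
Level of each CC chemokine in CPM on a log axis, 4 libraries a group, with the group mean as a line and libraries at 0 counts as open triangles at the foot of the panel. Ccl3, Ccl4, Ccl6, Ccl7, Ccl9 and Ccl17 stood apart in AhR-poor papain, Ccl20 and Ccl22 were higher in both papain groups, and Ccl27a overlapped between all groups compared.

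Ccl2, the main attractant of inflammatory monocytes, was already present in epidermis given vehicle. Its levels were 23.6, 5.33, 8.76 and 21.4 CPM in I3C vehicle and 10.8, 4.05, 11.03 and 9.74 CPM in AhR-poor vehicle. After papain they were 4.58, 10.9, 6.59 and 5.62 CPM on the I3C diet and 40.8, 50.8, 38.2 and 19.0 CPM on the AhR-poor diet. Thus the I3C vehicle libraries spread over a wide range that overlapped both other low groups, and AhR-poor papain lay above I3C papain and AhR-poor vehicle with no overlap. Means were 14.8 ± 9.09 CPM in I3C vehicle, 8.91 ± 3.29 in AhR-poor vehicle, 6.92 ± 2.78 in I3C papain and 37.2 ± 13.3 in AhR-poor papain (SD, n = 4). Papain raised Ccl2 on the AhR-poor diet by 2.06 ± 0.49 (log2 ± SE, adjusted p = 0.00519). On the I3C diet the log2 difference was -1.10 ± 0.49 (adjusted p = 0.103), below 0 but not called. Between the diets with papain Ccl2 differed by 2.43 ± 0.50 (adjusted p = 0.00376). Both calls were close to the threshold: the first was lost in 7 of the 16 fits that left out 1 library (without T100, T101, T102, T103, T104, T105 or T107, adjusted p up to 0.0169) and the second in 4 (without T104, T105, T114 or T115, adjusted p up to 0.0178).

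Ccl7, which shares Ccr2 with Ccl2, had fewer counts with vehicle and a larger log2 difference with papain on the AhR-poor diet. It was counted at 1.90, 0.357, 0.571 and 2.61 CPM in I3C vehicle, 2.26, 1.19, 1.06 and 1.99 CPM in AhR-poor vehicle, 1.10, 1.76, 1.66 and 0.647 CPM in I3C papain, and 21.5, 32.0, 17.7 and 11.50 CPM in AhR-poor papain. The 3 low groups overlapped one another and the lowest AhR-poor papain library exceeded all of them. Papain changed Ccl7 by 3.67 ± 0.52 on the AhR-poor diet (log2 ± SE, adjusted p = 8.76e-05) and by -0.07 ± 0.56 on the I3C diet (adjusted p = 0.949, 95% interval -1.16 to 1.02). With papain the diets differed by 4.02 ± 0.54 (adjusted p = 1.12e-04), and no single library left out ended either call.

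The balance of this pair was compared as a ratio. There were 8.21 to 15.3 Ccl2 reads for each Ccl7 read in I3C vehicle, 3.40 to 10.4 in AhR-poor vehicle, 3.98 to 8.69 in I3C papain and 1.59 to 2.16 in AhR-poor papain. The AhR-poor papain ratios lay below those of AhR-poor vehicle and of I3C papain without overlap. In a two-sided exact permutation test of the log ratio, 4 libraries against 4, both differences reached 0.0286, the smallest p this design can give, which became 0.0571 and so passed no threshold of 0.05 after adjustment over the 6 ratio tests made. A ratio does not depend on how the libraries were scaled.

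Ccl3 and Ccl4, the macrophage inflammatory proteins, which draw macrophages and T cells, were near the detection floor in I3C vehicle. For Ccl3 the levels were 0.0574, 0.0510, 0.109 and 0.360 CPM in I3C vehicle, 0.654, 0.900, 0.618 and 0.590 CPM in AhR-poor vehicle, 1.54, 0.385, 0.285 and 0.249 CPM in I3C papain, and 26.2, 39.3, 13.1 and 5.52 CPM in AhR-poor papain. The AhR-poor papain libraries were all above the others, and they differed among themselves from 5.52 in T112 to 39.3 CPM in T105. Among the I3C papain libraries T106 stood apart at 1.54 CPM. Papain raised Ccl3 by 4.93 ± 0.67 on the AhR-poor diet (adjusted p = 6.63e-05). On the I3C diet the estimate was 2.15 ± 0.97 (adjusted p = 0.105, 1.09 at its lowest with 1 library left out), above 0 but not called. The diets with papain differed by 5.06 ± 0.68 (adjusted p = 1.28e-04). Without T106 the diet difference was 6.12, and the call stayed in all 16 fits with 1 library left out.

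Ccl4 showed 0.115, 0.0765, 0 and 0.0900 CPM in I3C vehicle, 0.436, 0.450, 0.346 and 0.617 CPM in AhR-poor vehicle, 0.804, 0.257, 0.114 and 0.0746 CPM in I3C papain, and 13.6, 28.5, 7.83 and 3.45 CPM in AhR-poor papain. The order of libraries within AhR-poor papain was that of Ccl3, with T105 highest and T112 lowest. Papain raised Ccl4 by 4.85 ± 0.68 on the AhR-poor diet (adjusted p = 7.63e-05) and the diets with papain differed by 5.37 ± 0.71 (adjusted p = 1.03e-04). Leaving out T105 brought these differences to 4.16 and 4.68, and leaving out T106 brought the second to 6.53, with both calls kept. On the I3C diet the papain estimate of Ccl4 was 2.15 ± 1.13 (adjusted p = 0.162, 0.99 at its lowest with 1 library left out), not called. The ratio of Ccl3 to Ccl4 overlapped between treatments on the AhR-poor diet, 0.957 to 2.0 reads of Ccl3 for each of Ccl4 with vehicle and 1.38 to 1.92 with papain (exact permutation p = 0.771).

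Ccl6 and Ccl9, ligands of Ccr1 found in rodents and made by macrophages and other myeloid cells, gave the largest diet differences beside Ccl3 and Ccl4. Ccl6 was at 0.632, 0.969, 1.58 and 1.05 CPM in I3C vehicle, 3.51, 2.70, 4.25 and 4.13 CPM in AhR-poor vehicle, 2.41, 0.706, 0.685 and 0.721 CPM in I3C papain, and 28.4, 57.8, 36.2 and 12.7 CPM in AhR-poor papain. The AhR-poor groups lay above the I3C group of the same treatment without overlap. Papain raised it by 3.21 ± 0.46 on the AhR-poor diet (adjusted p = 9.67e-05) and the difference was 0.12 ± 0.55 on the I3C diet (adjusted p = 0.897). Between the diets with papain the difference was 4.87 ± 0.51 (adjusted p = 1.70e-05), and 5.59 without T106.

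Ccl9 had at most 2 counts in each of the 4 I3C vehicle libraries (0.0574, 0, 0.0544 and 0 CPM). It reached 1.31, 0.556, 0.593 and 0.671 CPM in AhR-poor vehicle, 0.804, 0.160, 0 and 0.0746 CPM in I3C papain, and 14.8, 33.7, 18.4 and 7.91 CPM in AhR-poor papain. Each AhR-poor vehicle library thus exceeded each I3C vehicle library, at least 9.36-fold on average against a floor of 3 counts per library (at least 7.26-fold without T100). Papain raised Ccl9 by 4.58 ± 0.62 on the AhR-poor diet (adjusted p = 6.11e-05). The diet difference with papain, 6.08 ± 0.71, was the largest of the 10 members (adjusted p = 3.54e-05), and without T106 it was 7.90. For papain on the I3C diet no fold is given, since all I3C vehicle libraries were under the floor and 3 of the 4 I3C papain libraries had at most 5 counts. From 2.69 to 7.17 reads of Ccl6 were counted for each of Ccl9 in AhR-poor vehicle and 1.60 to 1.97 in AhR-poor papain (exact permutation p = 0.0286, adjusted 0.0571), without overlap.

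The macrophage and neutrophil lists, like these 6 genes, had their highest group mean in AhR-poor papain. The part of these cells in the result was not tested. The 12 genes of the monocyte and macrophage list summed to 7.62 to 9.85 CPM in I3C vehicle, 22.2 to 34.0 in AhR-poor vehicle, 8.06 to 26.8 in I3C papain and 106.6 to 533.2 in AhR-poor papain. Of them, 9 rose with papain on the AhR-poor diet, 2 did on the I3C diet, and 11 were called higher for the AhR-poor diet among the papain groups. The 11 neutrophil genes summed to 0.517 to 1.02, 2.92 to 3.26, 20.9 to 29.6 and 62.0 to 384 CPM in the same order of groups. The sum in I3C papain was nearly all Cxcr2 (24.2 ± 4.25 CPM, SD, n = 4), and Csf3r, Clec4d and Trem1 averaged 0.739, 0.653 and 0.575 CPM there, against 57.8, 54.3 and 52.9 CPM in AhR-poor papain. With papain 8 of the 11 rose on the AhR-poor diet and 1, Cxcr2, on the I3C diet, and 8 were called higher for the AhR-poor diet among the papain groups. Their defining marker Ly6g was at 0 in all libraries but those of AhR-poor papain. In both lists T105 was the highest and T112 the lowest of AhR-poor papain, as for Ccl2, Ccl3, Ccl4, Ccl6, Ccl7 and Ccl9. T106, the I3C papain library that was highest in Ccl3, Ccl4, Ccl6 and Ccl9, was also the highest of its group in the macrophage list (26.8 CPM), the T cell list (33.1 CPM) and the Langerhans cell list (595 CPM). T106 was the lowest I3C papain library for Ccl2 (4.58 CPM). Ccl2 overlapped between I3C vehicle (5.33 to 23.6 CPM) and AhR-poor vehicle (4.05 to 11.03 CPM) and was not called there (edgeR adjusted p = 0.619). The macrophage sums of these groups did not overlap. For Ccl7, T106 (1.10 CPM) was not the highest of its group.

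Markers of dermal cells differed between the diets as well. The 10 fibroblast genes summed to 20.1 to 24.8 CPM in I3C vehicle, 109.2 to 190.5 in AhR-poor vehicle, 11.9 to 25.8 in I3C papain and 278 to 667 in AhR-poor papain, and the 8 endothelial genes to 0.948 to 3.52, 14.5 to 38.4, 1.09 to 2.58 and 24.7 to 60.6 CPM. With vehicle, where no member was called between the diets, 8 of 10 fibroblast and 8 of 8 endothelial genes were called higher on the AhR-poor diet. Mast cell genes, 6 in number, summed to 0.120 CPM or less in I3C vehicle and 0.146 or less in I3C papain, to 0.778 to 4.55 CPM in AhR-poor vehicle and to 5.49 to 20.2 CPM in AhR-poor papain. Ms4a2, which encodes a chain of the IgE receptor, was at 0 in every I3C library. The 6 genes of pericytes and smooth muscle summed to 134 to 305 CPM over all libraries. Most of the sum in I3C papain was Notch3 (253.8 ± 21.9 CPM, SD, n = 4). Rgs5, Tagln and Des were called higher for the AhR-poor diet among the papain groups. Acta2 rose with papain on both diets, to means of 14.7 CPM in I3C papain and 19.0 CPM in AhR-poor papain. The 6 T cell genes summed to 10.7 to 64.4 CPM. Neither keratinocyte list had a called gene in any comparison. The part of these cells in the chemokine differences was not tested.

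**Figure D2:**
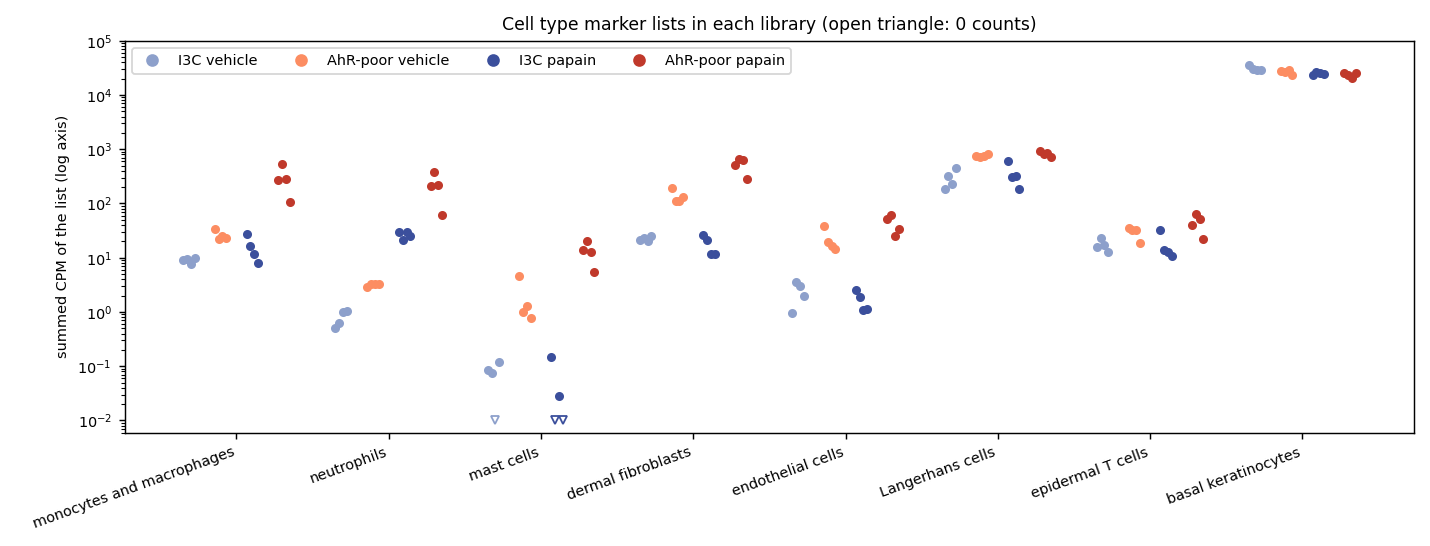
Summed CPM of 8 marker lists on a log axis, 1 point a library, coloured by group, with sums of 0 as open triangles. The macrophage, neutrophil, mast cell, Langerhans cell, fibroblast and endothelial sums were higher in each AhR-poor group than in the I3C group of the same treatment. The higher neutrophil sums of I3C papain against I3C vehicle were nearly all Cxcr2, and basal keratinocyte sums stayed between 20710 and 36310 CPM.

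Ccl17 and Ccl22, the Ccr4 ligands made by Langerhans and other dendritic cells, are neighbours on chromosome 8 and yet differed in level and pattern. Ccl17 was scarce, with 0.0574, 0.0765, 0.0816 and 0.150 CPM in I3C vehicle, 0.2997, 0.0530, 0.0742 and 0 CPM in AhR-poor vehicle and 0.146, 0.257, 0.171 and 0.0746 CPM in I3C papain. In AhR-poor papain it was at 1.23, 1.21, 0.779 and 1.85 CPM, above every other library. This was 3.56 ± 0.53 higher than with vehicle (log2 ± SE, adjusted p = 4.06e-05; 4.79 without T100) and 2.99 ± 0.50 higher than in I3C papain (adjusted p = 3.00e-04). Those calls rest on 18 to 68 reads a library in AhR-poor papain and on 11 or fewer elsewhere. T112, the lowest library of its group for Ccl2 and for Ccl3, was the highest for Ccl17.

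Ccl22 ran at 1.35, 2.12, 3.13 and 5.37 CPM in I3C vehicle, 5.23, 3.52, 3.83 and 4.77 CPM in AhR-poor vehicle, 11.9, 15.8, 19.2 and 5.97 CPM in I3C papain, and 31.4, 9.92, 28.3 and 17.3 CPM in AhR-poor papain. Both papain groups lay above their vehicle group, and the papain groups overlapped. It rose by 2.15 ± 0.46 on the I3C diet (adjusted p = 0.00219) and by 2.32 ± 0.45 on the AhR-poor diet (adjusted p = 0.00123). The first call was lost without T109 (adjusted p = 0.0108) and the second in none of the 16 fits. Diets with papain differed by 0.71 ± 0.43 (adjusted p = 0.281, 95% interval -0.12 to 1.55). The 6 Langerhans cell markers summed to 182 to 451 CPM in I3C vehicle, 730 to 832 in AhR-poor vehicle, 188 to 595 in I3C papain and 715 to 929 in AhR-poor papain. With each treatment every AhR-poor sum lay above every I3C sum. In edgeR 0 of these 6 genes were called with papain on either diet, and 1 was called between the diets with papain. The sums do not follow each marker. Cd207 was at 48.0 to 67.5 CPM in AhR-poor vehicle and lower, at 26.0 to 38.4 CPM, in AhR-poor papain, without overlap. On that diet 5 of the 6 had a papain estimate above 0. The part of Langerhans cells in the levels of Ccl17 and Ccl22 was not tested.

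Ccl20, the Ccr6 ligand that keratinocytes release on contact with interleukin-1, TNF or damage, rose with papain on both diets. Its levels were 19.9, 11.6, 8.81 and 12.5 CPM in I3C vehicle and 26.3, 9.21, 15.6 and 12.8 CPM in AhR-poor vehicle. They were 31.0, 31.2, 24.1 and 30.4 CPM in I3C papain and 54.7, 30.5, 36.8 and 36.7 CPM in AhR-poor papain. Each papain group was above its vehicle group with no overlap, and the papain groups overlapped by little. The rise was 1.15 ± 0.30 on the I3C diet (log2 ± SE, adjusted p = 0.00859) and 1.31 ± 0.30 on the AhR-poor diet (adjusted p = 0.00386), and the diets with papain differed by 0.44 ± 0.30 (adjusted p = 0.342, 95% interval -0.14 to 1.02). The I3C call was lost in 12 of the 16 fits that left out 1 library, all but those without T100, T101, T104 or T108, with adjusted p up to 0.0274, and the AhR-poor call in 4 (without T101, T102, T103 or T104, up to 0.0157) and in the fit of the 8 libraries compared (0.0184). The 4 libraries against 4 did not overlap in either case, which gives the smallest exact permutation p of 0.0286.

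Ccl27a, the ligand that keratinocytes make for Ccr10-bearing skin T cells, was not called in any comparison. It was at 21.2, 11.3, 18.9 and 11.3 CPM in I3C vehicle, 26.6, 15.5, 18.2 and 9.92 CPM in AhR-poor vehicle, 18.5, 6.77, 8.71 and 9.77 CPM in I3C papain, and 23.0, 20.1, 18.1 and 21.4 CPM in AhR-poor papain. All groups compared overlapped. Papain gave a log2 difference of 0.24 ± 0.33 on the AhR-poor diet (95% interval -0.41 to 0.88, adjusted p = 0.636) and of -0.52 ± 0.33 on the I3C diet (-1.17 to 0.14, adjusted p = 0.262). With papain the AhR-poor diet was 0.91 ± 0.33 higher (adjusted p = 0.0686), a difference that was called without T106, at 1.30 and adjusted p = 0.00567.

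**Figure D3:**
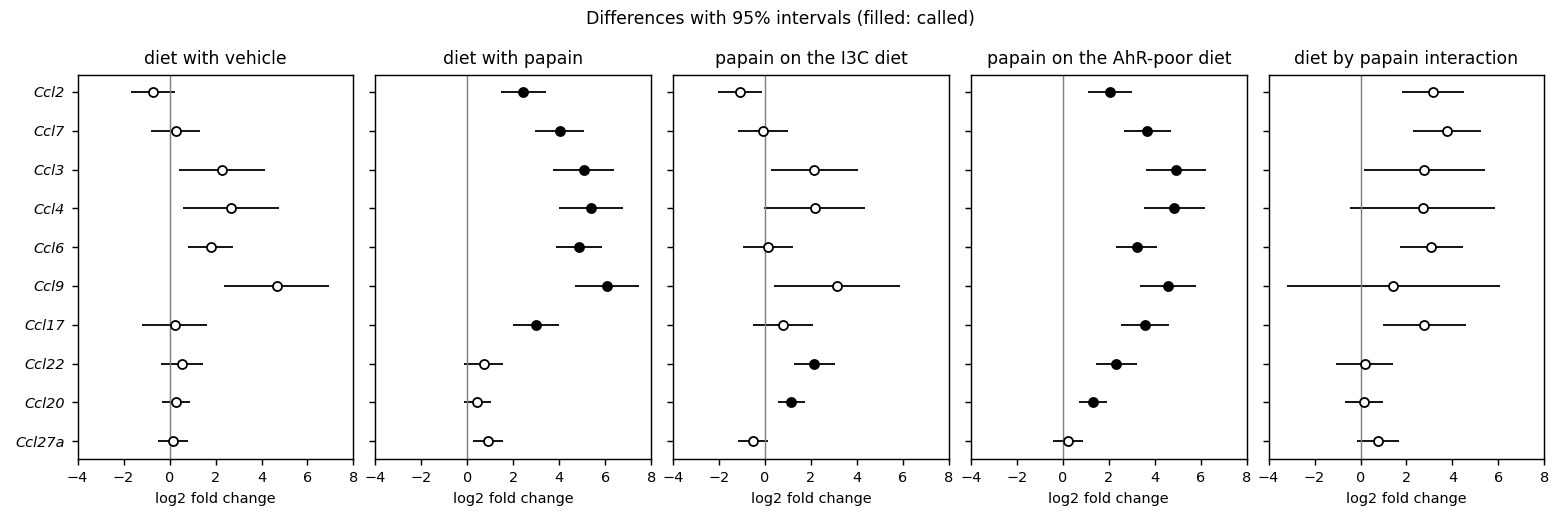
Log2 differences of the 10 members in the 4 comparisons and the interaction, points with 95% intervals, filled where called. Diet differences with vehicle are all open, those with papain are filled for 7 members up to 6.08 for Ccl9, and on the I3C diet papain is filled for Ccl20 and Ccl22 alone.

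Between the diets with vehicle, the members that differed most were Ccl3, Ccl4, Ccl6 and Ccl9. Log2 differences were 2.28 ± 0.96 for Ccl3, 2.67 ± 1.06 for Ccl4, 1.78 ± 0.51 for Ccl6 and 4.65 ± 1.17 for Ccl9, with adjusted p of 0.325, 0.286, 0.0889 and 0.0484 in that order. In these 4 genes every AhR-poor library exceeded every I3C library, 4 of 10 members against 6.45% of all genes. The same 4 had an unadjusted p below 0.05. No share of all genes is given for that limit, so this number is not a result about the members. The count of members called was 0 in edgeR, 1 (Ccl9) by DESeq2 and 3 (Ccl4, Ccl6 and Ccl9) when the fit used the 8 vehicle libraries alone. Over all genes DESeq2 called 595 of 22155 higher, and the fit of the 8 vehicle libraries 502 of 20180. For the other 6 members the estimates lay between -0.73 for Ccl2 and 0.54 for Ccl22, and the libraries overlapped. Ccl3, Ccl4 and Ccl9 had at most 12 reads in any I3C vehicle library and at most 48 in any AhR-poor vehicle library, and the fitted value of Ccl9 depends on the prior count, since its I3C libraries were under the floor.

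Whether papain acted differently on the 2 diets was tested with the interaction of diet and treatment, the papain difference on the AhR-poor diet minus that on the I3C diet. No member was called in edgeR, where 0.0181% of all genes were called. The estimates were 3.74 ± 0.75 for Ccl7 (adjusted p = 0.0554), 3.16 ± 0.69 for Ccl2 (0.0758), 3.09 ± 0.71 for Ccl6 (0.0852) and 2.78 ± 0.91 for Ccl17 (0.207). These 4 had an unadjusted p below 0.05. No share of all genes is given for that limit, so their number says nothing about the members as a set. DESeq2 called 3 members, with an adjusted p of 9.85e-04 for Ccl2, 0.00137 for Ccl6 and 5.15e-04 for Ccl7. Over all 22155 genes DESeq2 called 200 higher and 5 lower in the interaction, many more than edgeR. For Ccl20 and Ccl22 the estimates were 0.17 ± 0.42 (95% interval -0.66 to 0.997) and 0.17 ± 0.63 (-1.07 to 1.41). Ccl3 and Ccl4 had interaction estimates of 2.78 ± 1.35 (adjusted p = 0.389) and 2.70 ± 1.61 (adjusted p = 0.492). Ccl9 had a wide interval, from -3.19 to 6.06, since its I3C vehicle libraries were at the floor. Since edgeR called no member here, a papain call on the AhR-poor diet alone is not a shown difference between the papain responses. The tools disagreed for Ccl2, Ccl6 and Ccl7, and neither called Ccl3, Ccl4, Ccl9 or Ccl17.

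Summed over the 10 members, the CC chemokines took 31.9 to 68.9 CPM in I3C vehicle, 38.1 to 77.4 in AhR-poor vehicle, 53.6 to 72.8 in I3C papain and 137 to 304 in AhR-poor papain. With vehicle the sum was mostly Ccl27a, Ccl20 and Ccl2, with median shares of 33.2%, 25.8% and 27.6% in I3C vehicle and 33.5%, 28.2% and 16.9% in AhR-poor vehicle. In I3C papain Ccl20 came to 44.2% and Ccl22 to 19.8%, while Ccl27a was at 16.2%. In AhR-poor papain the highest share in any library was 26.7%, of Ccl20, and the median shares were 19.3% for Ccl20, 16.3% for Ccl2, 14.0% for Ccl6, 12.5% for Ccl22, 8.68% for Ccl27a, 8.40% for Ccl7, 8.16% for Ccl3, 7.15% for Ccl9, 4.48% for Ccl4 and 0.441% for Ccl17.

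**Figure D4:**
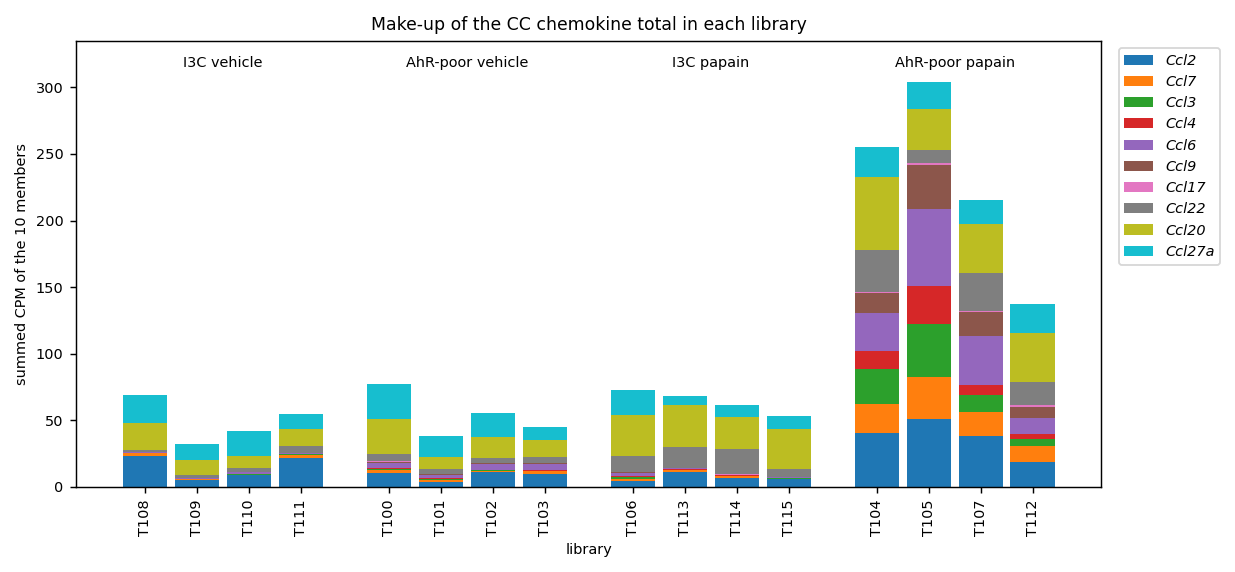
Stacked CPM of the 10 members in each of the 16 libraries, grouped by diet and treatment. The AhR-poor papain libraries reached 137 to 304 CPM, against at most 77.4 CPM elsewhere, and T105 was made up chiefly of Ccl6, Ccl2, Ccl3 and Ccl9.

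Levels of different genes were compared per kb of exonic length. In I3C vehicle Ccl2 (13.0 ± 7.98 CPM per kb), Ccl20 (9.29 ± 3.34) and Ccl27a (6.60 ± 2.16) led with overlapping libraries and stood clear of Ccl7 (1.70 ± 1.35), and the rest followed down to Ccl9 at 0.00918. In AhR-poor vehicle the same 3 genes led, in the order Ccl20, Ccl2 and Ccl27a (11.3, 7.83 and 7.38 CPM per kb), again clear of the next, Ccl6 at 2.03. In I3C papain Ccl20 (20.5 ± 2.40) stood apart from Ccl2 (6.08 ± 2.44), Ccl22 (5.69 ± 2.44) and Ccl27a (4.60 ± 2.18), which overlapped. In AhR-poor papain Ccl2 (32.7 ± 11.7), Ccl20 (27.9 ± 7.33), Ccl3 (27.5 ± 19.5), Ccl7 (25.8 ± 10.7), Ccl4 (20.2 ± 16.5) and Ccl6 (18.8 ± 10.5) all overlapped with their neighbours in the order, followed by Ccl22 (9.35 ± 4.27), Ccl27a (8.68 ± 0.87), Ccl9 (6.13 ± 3.58) and Ccl17. Per kb, Ccl9 stayed near the bottom of the order although its diet difference was the largest.

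For each member the 2 genes with the most similar pattern over the 16 libraries were taken by Pearson's r of log2 CPM, among 13025 genes with a mean of at least 1 CPM (13026 for Ccl17). The 16 libraries come from 4 groups and share them in every such r, so the values are descriptions with no test. Ccl2 and Ccl7 both had Medag among their 2 (r = 0.909 and 0.960), beside Gadd45a for Ccl2 (0.928) and Lhfpl2 for Ccl7 (0.945). Ccl3 was closest to Plek (0.982) and Trem1 (0.980), Ccl4 to Slfn2 (0.985) and Fes (0.984), Ccl6 to Emilin2 (0.987) and the leukocyte integrin Itgb2 (0.978), and Ccl9 to the scavenger receptor Msr1 (0.982) and Zeb2 (0.975). Ccl22 was closest to Ccr7 (0.964), the receptor by which dendritic cells leave the skin, and to Il4i1 (0.954). Ccl20 was closest to Rrad (0.946) and Epcam (0.945). Ccl17 and Ccl27a had weaker partners, Sap18 (0.910) and Gm45222 (0.902) for the first and Serpina3g (0.898) and Sult5a1 (0.879) for the second.

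The receptors through which these ligands act are shown next. Of 10 CC receptors considered, 9 were tested, and in edgeR 0 were called between the diets with vehicle, while 3 were called higher for the AhR-poor diet among the papain groups, 4 rose with papain on the AhR-poor diet and 1 on the I3C diet. Ccr1, shared by Ccl3, Ccl6 and Ccl9, was at 0.102 CPM or less in I3C vehicle and 0.518 to 0.697 CPM in AhR-poor vehicle, and at 0.0497 to 2.39 CPM in I3C papain and 6.94 to 60.4 CPM in AhR-poor papain. It rose with papain on the AhR-poor diet by 5.73 ± 0.83 and was 5.30 ± 0.81 higher there than on the I3C diet (7.20 without T106). Ccr2, which reads Ccl2 and Ccl7, rose by 4.02 ± 0.53 on the AhR-poor diet and differed by 5.12 ± 0.58 between the diets with papain. Ccr3, the receptor of eosinophils and mast cells, was called in both comparisons, at least 6.88-fold higher than with vehicle (5.08 without T105) and at least 6.59-fold higher than on the I3C diet (4.87 without T105). Adjusted p-values of these calls were at most 6.07e-04 in edgeR, and Ccr1 was not called between the diets when only the 8 papain libraries were fitted (adjusted p = 0.0140).

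Ccr7 was the receptor that rose on both diets, by 3.02 ± 0.37 on the AhR-poor and 2.69 ± 0.39 on the I3C diet, and the diets with papain differed by 1.16 ± 0.34 without a call (adjusted p = 0.0215). Ccr4, Ccr6 and Ccr10 were not called in any comparison. Ccr4, the receptor of Ccl17 and Ccl22, lay between 2.70 and 8.52 CPM in all libraries, Ccr6, the receptor of Ccl20, between 0.134 and 1.16 CPM, and Ccr10, the receptor of Ccl27a, at 0.198 CPM or less. Among the 4 genes listed as atypical receptors, Ccrl2 rose on the AhR-poor diet by 3.88 ± 0.64 (3.17 without T105). It differed by 4.36 ± 0.66 between the diets with papain (3.65 without T105 and 5.05 without T106). Ackr1, found on venules, rose by 3.04 ± 0.45 on the AhR-poor diet and was at least 41.8-fold higher there than on the I3C diet with papain (34.8 without T105). The exons of Ackr1 share 361 bases with Cadm3 on the same strand, and Ccrl2 was not called between the diets when only the 8 papain libraries were fitted (adjusted p = 0.0120). Ackr2, which scavenges many CC ligands, rose on the I3C diet by 1.04 ± 0.25, a call lost without T106, T108, T111 or T114. On the AhR-poor diet its estimate was 0.96 ± 0.25, with an adjusted p of 0.00520 and a size just under the limit of 1.

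**Figure D5:**
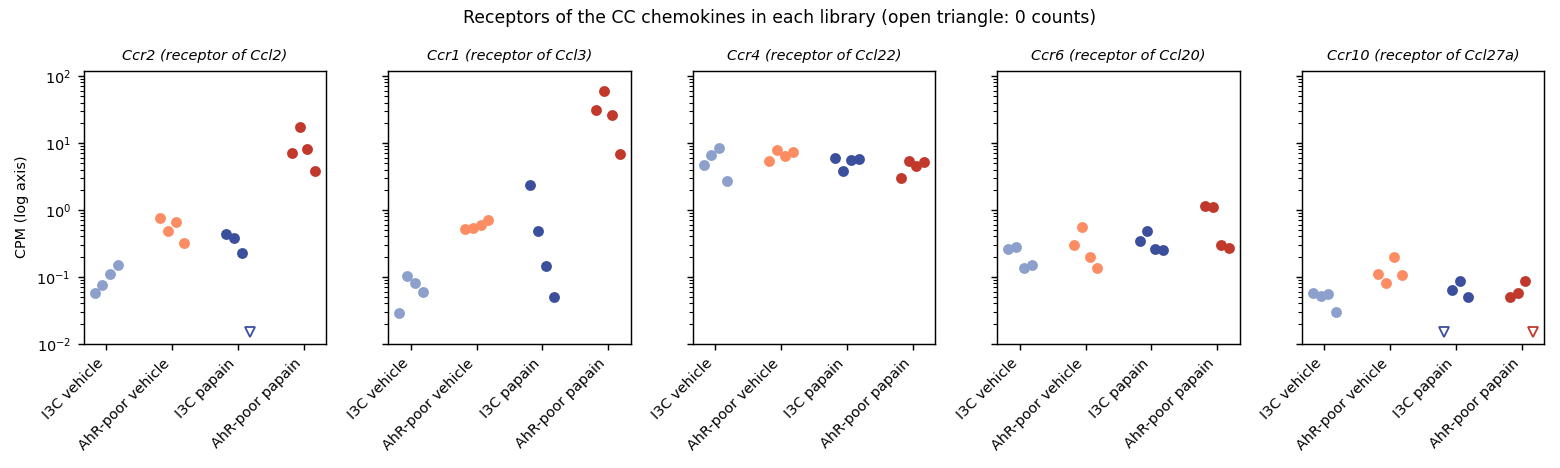
CPM of 5 receptors on a log axis, 1 point a library, with libraries at 0 counts as open triangles. Ccr1 and Ccr2 stood apart in AhR-poor papain, whereas Ccr4, Ccr6 and Ccr10 overlapped between papain and vehicle on both diets.

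Of 14 other CC ligands, 9 were tested. Among the papain groups 6 were called higher for the AhR-poor diet (Ccl5, Ccl8, Ccl11, Ccl12, Ccl21a and Ccl24), and 5 of these, without Ccl21a, rose with papain on that diet. Ccl11, the eosinophil attractant eotaxin, and Ccl21a, which lymphatic vessels make to guide dendritic cells through Ccr7, were the ones already called between the diets with vehicle, 2 of 9. Ccl11 was at least 9.56-fold higher there (7.75 without T100) and at least 65.3-fold higher with papain, and it rose with papain on the AhR-poor diet by 2.75 ± 0.38. Ccl21a differed by 4.25 ± 0.80 with vehicle and by 4.88 ± 0.82 with papain (6.60 without T106). The call with vehicle was lost in 12 of 16 fits with 1 library left out, all but those without T103, T106, T107 or T115 (adjusted p up to 0.0337). Ccl21b was counted at 0 in every library, and how reads that map to several genes were assigned is not given. The monocyte attractant Ccl8 rose by 4.81 ± 0.60 on the AhR-poor diet (4.18 without T105) and was at least 18.7-fold higher there than on the I3C diet (12.2 without T105). Ccl5, made by T cells and macrophages, rose by 3.34 ± 0.46 and differed by 3.44 ± 0.46 (2.85 without T105). Ccl24, another eotaxin, rose by 3.03 ± 0.51 (4.08 without T100) and was at least 9.49-fold higher than on the I3C diet, and Ccl12, a Ccr2 ligand, was at least 3.71-fold higher than with vehicle and at least 3.56-fold higher than on the I3C diet. On the I3C diet 0 of the 9 rose in edgeR and Ccl28, an epithelial ligand of Ccr10, fell by 1.37 on the log2 scale (SE 0.34, adjusted p = 0.00356, not called without T109, T110, T111, T114 or T115), where 5.29% of all genes were called lower.

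Among 12 cytokines known to induce these ligands, 6 rose with papain on the AhR-poor diet (Il1a, Il1b, Tnf, Il1f9, Il13 and Osm), 2 on the I3C diet (Il1b and Tnf), and 3 differed between the diets with papain (Il1b, Tnf and Osm, all higher for the AhR-poor diet). In edgeR 0 were called with vehicle. Il1b was at 0.144 to 0.720 CPM in I3C vehicle, 1.99 to 3.19 in AhR-poor vehicle, 2.01 to 15.0 in I3C papain and 59.7 to 431 in AhR-poor papain, with T112 lowest and T105 highest in the last group, as for Ccl3, Ccl4, Ccl6 and Ccl9. It rose by 6.50 ± 0.74 on the AhR-poor and by 4.04 ± 0.93 on the I3C diet, and the second call was lost without T106 (3.06, adjusted p = 0.01003), T108, T109 or T110. Its diet difference with papain was 5.23 ± 0.69, and 6.21 without T106. Tnf rose by 1.61 ± 0.28 and 1.25 ± 0.28, and its diet difference with papain was 1.16 ± 0.27, lost without T104, T105, T106, T107, T113, T114 or T115, and the I3C call without T109 or T111. Osm, made by neutrophils and macrophages, rose by 5.68 ± 0.58 on the AhR-poor diet, differed by 5.92 ± 0.59 between the diets with papain (7.03 without T106), and had an estimate of 1.89 ± 0.95 on the I3C diet, not called. Il1a rose by 2.35 ± 0.51, Il1f9 by 1.11 ± 0.18 (not called without T105, at 0.99) and Il13 by 1.19 ± 0.33 (not called without T100, T101, T102, T103, T104, T105, T107, T109, T110 or T113) on the AhR-poor diet. Of 8 genes of NF-kB and mRNA decay, 1 was called, Zfp36, which encodes a protein that speeds the decay of cytokine and chemokine mRNA and fell by 1.07 on the I3C diet with papain (SE 0.21, not called without T108). In edgeR 0 genes of these lists were called in the interaction.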

How the data were processed

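The authors deposited raw counts of reads per Ensembl gene for 16 libraries made with a stranded TruSeq mRNA kit. Their processing notes name STAR, FastQC, DESeq2 and the mm10 build. The counting tool, its strand setting and the annotation release are not given in the sources used here, so genes with overlapping exons or near-identical copies may share reads. Of 50600 identifiers 50376 were matched to a symbol with a GENCODE annotation of GRCm38, and 224 were not.

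Library totals were 22500821 to 51844375 counts and TMM factors 0.937 to 1.07. The 22155 genes that summed to 10 counts or more were fitted in edgeR 4.0.16 (R 4.3.3) with the robust quasi-likelihood F test and 1 mean per group over all 16 libraries. A call needed an adjusted p (Benjamini-Hochberg) below 0.01 and an absolute log2 fold change above 1. Standard errors are the absolute log2 fold change divided by the square root of F. Two-sided exact permutation tests (SciPy 1.17.1, Python 3.11.15) compared 4 log2 CPM values or log ratios with 4. A fold against a group in which every library was at 3 counts or fewer was computed against 3 counts per library and is written as at least. CPM between genes were divided by the exonic length in kb. Scripts were tested on simulated data.

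Alternatives were RLE factors, library size only, other filters, DESeq2 1.42.0 (Wald test), fits of the 8 libraries compared, other thresholds and each library left out. The 10 members, the gene lists and the markers were chosen with earlier results of these data known. All members are named, and of the ligand, receptor, cytokine and NF-kB lists each gene called at least once. One receptor is not reported here. For each member the 2 genes with the highest Pearson correlation of log2 CPM (prior count 0.5) were taken among genes with a mean of at least 1 CPM. Samples labelled SYNTH are called AhR-poor, and PBS is called vehicle.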

Additional observations from a re-analysis of the deposited data

Results flagged for a closer look

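In 4 of the 40 combinations of member and group, 1 library lay far from the other 3 by Dixon's ratio, the gap to the nearest library divided by the range of the group, which chance alone would exceed in about 1 of 20 groups. T106 of I3C papain was high for Ccl3 (ratio 0.894) and Ccl6 (0.979). T100 of AhR-poor vehicle was high for Ccl9 (0.848), at 1.31 CPM where the other libraries had 0.556 to 0.671. T114 of I3C papain was low for Ccl20 (0.878), at 24.1 CPM where the others had 30.4 to 31.2. T106 also held the highest macrophage, T cell and Langerhans cell sums of its group and T100 the highest macrophage, mast cell, fibroblast and endothelial sums of its group, and their part in these values was not tested.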

How the results depend on the processing

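The count of members called between the diets with vehicle, 0, became 1 at an adjusted p below 0.05, 1 in DESeq2, 3 when only the 8 libraries compared were fitted (Ccl4, Ccl6 and Ccl9), and 0 to 1 with each library left out (1 without T106). Requiring at least 10 counts in every library left 6 members to test, so the others could not be called. Of these 6, 3 were called between the diets with papain, where 7 of 10 were called before. With papain on the AhR-poor diet 5 of the 6 were called, where 9 of 10 were. Over all genes this filter called 556 of 13146 higher between the diets with papain and 651 of 13146 higher with papain on the AhR-poor diet. With papain on the I3C diet the count of 2 became 1 with library size only, 1 with every gene of at least 1 count, and 0 to 2 with each library left out. Library size only called 752 of 22155 genes higher there, and the filter of at least 1 count called 813 of 28990. The interaction count of 0 became 3 in DESeq2. All other alternatives left these counts within 1.5 times. Over all genes, DESeq2 called 595 higher between the diets with vehicle against 352 in edgeR, and 200 against 4 in the interaction. Between the diets with vehicle, the fit of the 8 libraries compared called 502 of 20180 genes higher, and an adjusted p below 0.05 called 582 of 22155. With library size only, the median of all genes between the diets with papain moved from 0.01 to 0.11.

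Some members that were not called changed sign when 1 library was left out, and their log2 differences then ranged from -0.0667 to 0.81 for Ccl7, -1.02 to 0.60 for Ccl17, -0.0726 to 0.54 for Ccl20 and -0.11 to 0.35 for Ccl27a between the diets with vehicle. With papain on the I3C diet they ranged from -0.59 to 0.37 for Ccl6 and -0.41 to 0.47 for Ccl7, and in the interaction from -0.10 to 0.52 for Ccl20 and -0.25 to 0.43 for Ccl22. The cause was not tested. No paired analysis was possible because each replicate code occurs in 1 group alone.

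With 4 libraries a group the permutation test cannot give a p below 0.0286. In I3C vehicle Ccl3, Ccl4, Ccl9 and Ccl17 lay near the floor of 3 counts (at most 12 counts a library), where intervals are wide. In I3C papain Ccl3 had 10 to 63 counts, Ccl4 and Ccl9 reached 33 counts in T106, and Ccl17 had at most 8.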
